A study of Saccharomyces cerevisiae with 8 samples.

Results

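The genes described here encode the proteins of the small subunit of the cytosolic ribosome of budding yeast. They were chosen by name: each Saccharomyces cerevisiae gene on the array whose symbol starts with RPS and a digit, which gave 52 genes (65 probe sets) of the 5449 S. cerevisiae genes on the array. A gene with more than 1 probe set was represented by the probe set of highest mean. All 52 lay above the background level on all 8 arrays, so none was left out of the 3879 genes tested. The rule used gene names and no comparison of groups, but it was set with earlier results of these data known.

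The Affymetrix yeast genome arrays compared strain NBRC 0224, labelled sensitive to acetic acid, with strain NFRI 3145, labelled tolerant. Cells kept at 30 °C gave RNA either with no acid added, written 0% AcOH, or 30 min into 0.6% acetic acid, written 0.6% AcOH. Each of the 4 groups, NBRC 0224 0% AcOH, NBRC 0224 0.6% AcOH, NFRI 3145 0% AcOH and NFRI 3145 0.6% AcOH, has 2 arrays. The labels give a time for the acid groups only, so acid and time or handling cannot be told apart. They also do not say whether the 2 samples of a group came from separate cultures. The p-values therefore measure the spread between these samples, with each gene's variance moderated by that of the other genes. The series set out to find a gene related to tolerance.

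The small subunit reads the messenger RNA: it binds initiation factors, scans for the start codon and checks codon against anticodon in its decoding centre. Yeast encodes most of its proteins in a pair of genes, named A and B, which derive from an ancient duplication of the genome and make nearly or fully identical proteins. Ribosomal protein genes are among the most strongly transcribed genes of growing yeast. Rap1, Fhl1, Ifh1 and Sfp1 drive them under the control of nutrient signals through TOR and protein kinase A, and many stresses lower their transcripts for a time.

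Signals are the deposited linear intensities, whose trimmed mean was nearly equal on every array. The levels of different probe sets cannot be set against each other, so the comparisons below are of one gene between arrays. Member signals ran from 61.8 to 29544, against a background of 31.5 to 43.9 on an array. Signals above 10000 were marked, since a change may be compressed near the top of the scale. Of the 52 genes, 19 were above this mark on all 8 arrays, 10 on some (among them RPS16B, RPS23A, RPS24A, RPS27B, RPS28A, RPS28B, RPS31, RPS6B and RPS9B) and 23 on none. Replicate arrays correlated at r of 0.990 to 0.997 across the 52 genes, which are not independent replicates. At most 1 member per group lay more than 2-fold apart between replicates. For 12 members the probe set name ended in _s_at or _x_at, the maker's marks for probes shared with other transcripts, such as a paralog's. The probes follow the reference strain. Whether the sequences of these strains differ under them was not tested.

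Without acid, most small subunit genes gave higher signals in NFRI 3145 than in NBRC 0224. By limma (adjusted p under 0.05 over all tested genes), 38 of 52 were higher in NFRI 3145 (73.1%, against 21.1% of all tested genes) and 3 were lower (5.77%, against 29.1%). Their median log2 difference was 0.73, while that of all tested genes was −0.06. RPS28A, RPS21B and RPS26A differed most, at 13.5-fold, 10.2-fold and 6.25-fold higher signals. RPS1A, RPS1B and RPS28B were the 3 lower genes. Of these 41 calls, 34 (31 higher and 3 lower) held whichever array was left out.

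Under 0.6% AcOH the strains differed in a like manner: 36 of 52 members were higher in NFRI 3145 (69.2%, against 17.4% of all tested genes) and 2 were lower (3.85%, against 28.7%), with a median of 0.57 beside −0.23 for all tested genes. Leaving out each array in turn kept 28 of these 38 calls, 26 higher and 2 lower. The log2 differences of the 2 strain comparisons share no array. Each gene's variance was fitted from all arrays together and served both, so the calls of the 2 comparisons are not independent. In both, 34 members were called higher (65.4%, against 13.3% of all tested genes) and 2, RPS1A and RPS28B, lower (3.85%, against 22.2%). RPS0B, RPS13, RPS1B, RPS22A and RPS4B were called at 0% AcOH and not at 0.6%, RPS10A and RPS18B the other way round, and 9 members at neither level. A difference of more than 2-fold in the same direction at both acid levels was seen for 17 genes higher in NFRI 3145 (32.7%, against 9.44% of all tested genes) and for 1, RPS1A, lower (1.92%, against 21.4%). These values depend on the scaling. Centring each array on its median moved the median strain difference of all tested genes to 0.35 at 0% and 0.26 at 0.6% AcOH, and that of the members to 1.14 and 1.06. After quantile normalization the members' medians were 0.54 and 0.65, with all tested genes at 0.05 and −0.02. Relative to all genes, the members stood higher by 0.79 at 0% AcOH in the deposited scaling and by 0.49 after quantile normalization.

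**Figure D1:**
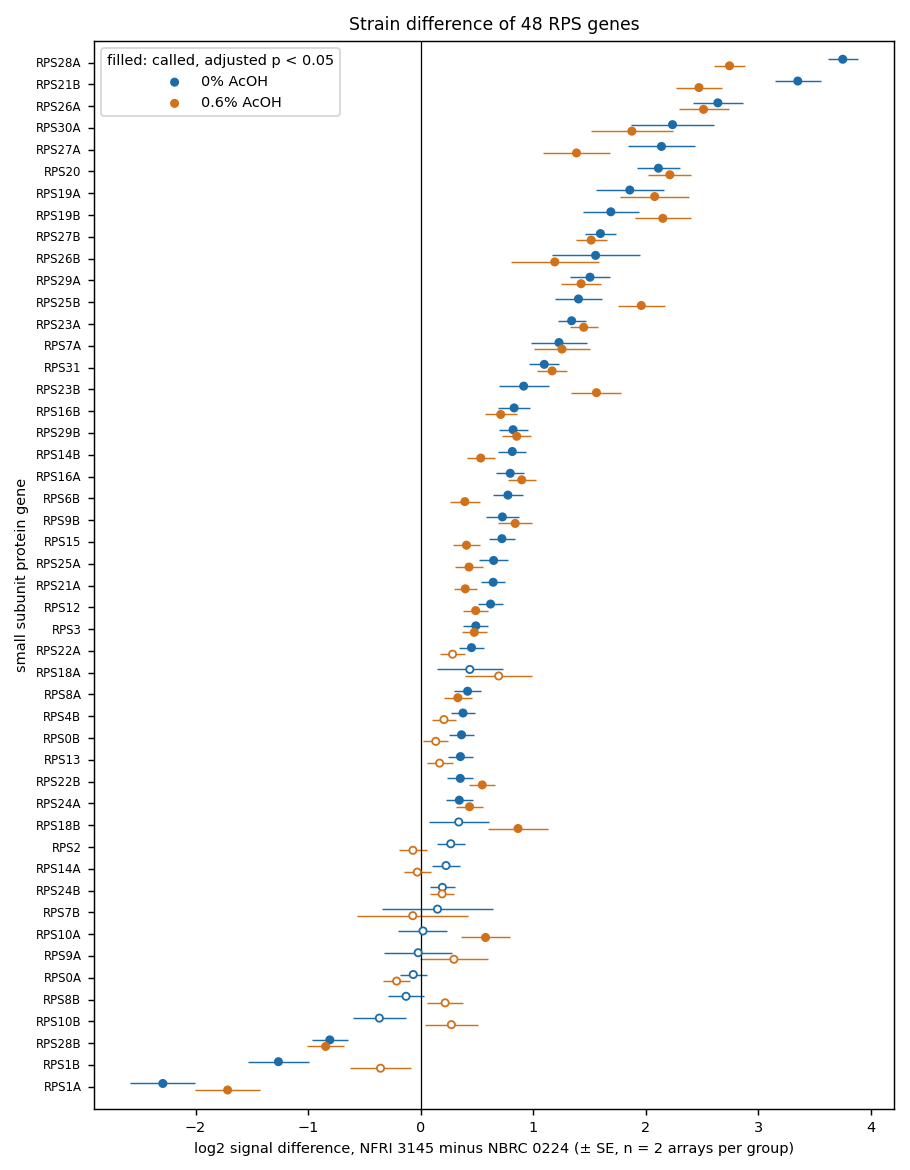
Log2 signal difference between the strains (NFRI 3145 minus NBRC 0224) for 48 small subunit genes at 0% AcOH (blue) and 0.6% AcOH (orange), with the standard error of the fit and 2 arrays per group; filled points were called. Most points lie right of 0, with RPS28A at the top at 3.75, and RPS28B, RPS1B and RPS1A at the bottom at −0.81, −1.26 and −2.29 for 0% AcOH.

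RPS28A and RPS28B encode one small protein at the messenger exit side of the subunit, and in yeast this protein lowers the RNA of the B copy through the decapping activator Edc3. RPS28A (YOR167C) read 1144 and 1154 in NBRC 0224 at 0% AcOH and 2600 and 2482 at 0.6%, against 15168 and 15826 and then 16714 and 17392 in NFRI 3145. Both NFRI 3145 groups lay far above both NBRC 0224 groups, and within NBRC 0224 both acid arrays lay above both arrays without acid. The log2 strain difference was 3.75 ± 0.14 (SE, n = 2 arrays per group, adjusted p = 7.9e-09) at 0% AcOH and 2.75 ± 0.14 (adjusted p = 1.4e-07) at 0.6%. RPS28B (YLR264W) read 7799 and 8192, then 10430 and 7663 in NBRC 0224, and 4779 and 4370, then 5123 and 4845 in NFRI 3145. Here the 4 NFRI 3145 arrays all lay below the 4 NBRC 0224 arrays. Its strain differences were −0.81 ± 0.16 (adjusted p = 0.0016) and −0.84 ± 0.16 (adjusted p = 0.0014), so the copies of this pair went in opposite directions.

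RPS21B, for a protein that binds next to Rps0 and takes part in maturation of the small subunit RNA, read 638 and 603 in NBRC 0224 at 0% AcOH, 1142 and 1515 at 0.6%, and 5405, 7432, 7111 and 7516 on the arrays of NFRI 3145. The strains did not overlap. Its difference was 3.35 ± 0.20 (adjusted p = 2.8e-07) at 0% AcOH and 2.48 ± 0.20 (adjusted p = 3.6e-06) at 0.6%. The partner RPS21A, above 10000 on every array, differed by 0.65 ± 0.10 (adjusted p = 3.3e-04) and 0.40 ± 0.10 (adjusted p = 0.0087), with signals of 17410 to 21322 in NBRC 0224 and 26510 to 29544 in NFRI 3145. Both strain groups of RPS21A are near the top of the scale, and how far this compressed the difference was not tested. RPS0A and RPS0B, the copies for the neighbouring Rps0 protein, differed little: −0.06 ± 0.12 and 0.36 ± 0.11 at 0% AcOH, of which RPS0B was called (adjusted p = 0.019), in 4 of the 8 fits with 1 array left out.

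RPS26A, whose protein lines the messenger exit channel and is loaded by the chaperone Tsr2, read 552 and 438, then 591 and 745 in NBRC 0224, and 2635 and 3574, then 3638 and 3960 in NFRI 3145. The NFRI 3145 arrays were all higher. The strain difference was 2.64 ± 0.22 (adjusted p = 2.7e-06) at 0% and 2.52 ± 0.22 (adjusted p = 5.2e-06) at 0.6% AcOH. RPS26B read 222 and 88.1, then 184 and 205 in NBRC 0224, and 338 and 501, then 370 and 531 in NFRI 3145. Its replicates spread more, and it was higher by 1.56 ± 0.39 at 0% AcOH (adjusted p = 0.0061), a call kept in 6 of 8 fits with an array left out. RPS20, a single gene for a protein of the subunit's head, read 1117 and 1051, then 1704 and 1243 in NBRC 0224, and 4399 and 5003, then 6347 and 7207 in NFRI 3145. Its strain differences were 2.11 ± 0.19 (adjusted p = 4.6e-06) and 2.22 ± 0.19 (adjusted p = 4.5e-06), and no array of one strain overlapped the other.

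Among the other proteins of the decoding region and its surroundings, RPS23A and RPS23B, whose protein helps to set decoding accuracy, were higher in NFRI 3145 at 0% AcOH by 1.34 ± 0.12 and 0.92 ± 0.22. RPS30A read 114 and 95.1, then 122 and 226 in NBRC 0224, and 427 and 567, then 433 and 859 in NFRI 3145. The strains did not overlap, and RPS30A was higher in NFRI 3145 by 2.24 ± 0.37 at 0% AcOH (adjusted p = 3.8e-04). RPS2, for a protein at the messenger entry that also bears on accuracy, was not called at either acid level (0.27 with a 95% interval of −0.01 to 0.55, and −0.07 with −0.34 to 0.21). RPS9B, for another accuracy protein, was higher by 0.73 ± 0.15, while its copy RPS9A was not called (−0.02, interval −0.69 to 0.65). RPS3, at the messenger entry of the head, was higher by 0.49 ± 0.11 (adjusted p = 0.0031), with every signal above 10000.

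Genes for the head of the subunit were higher in part. RPS19A read 1067 and 667, then 685 and 1001 in NBRC 0224, and 2585 and 3632, then 2788 and 4405 in NFRI 3145. RPS19B read 1899 and 1132, then 1154 and 1162 in NBRC 0224, and 4158 and 5396, then 4545 and 5842 in NFRI 3145. By these probe sets, no NFRI 3145 array of either copy overlapped NBRC 0224. The RPS19B set used is an _s_at set. By the _at set of RPS19B the strains overlapped, with 2097 in NBRC 0224 0% AcOH replicate 1. That set read 2035 and 1953 in replicate 1 of NFRI 3145 at 0% and 0.6% AcOH. RPS19A and RPS19B, needed for maturation of the small subunit RNA, were higher by 1.86 ± 0.30 and 1.69 ± 0.25 at 0% AcOH. RPS29A and RPS29B, for a zinc-binding protein, were higher by 1.51 ± 0.18 and 0.82 ± 0.13, and RPS16A and RPS16B by 0.80 ± 0.12 and 0.83 ± 0.14. RPS31, which is made as a fusion of ubiquitin to the ribosomal protein, read 11676 and 9100 in NBRC 0224 and 22039 and 22147 in NFRI 3145 at 0% AcOH and was higher by 1.10 ± 0.13 (adjusted p = 3.9e-05). RPS10A and RPS10B at 0.02 ± 0.22 and −0.37 ± 0.23, and RPS18A and RPS18B at 0.44 ± 0.30 and 0.34 ± 0.27, were not called at 0% AcOH. RPS12 and RPS15, both single genes and both above 10000 on all arrays, were higher by 0.62 ± 0.11 and 0.72 ± 0.12.

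Among the remaining genes, RPS27A read 232 and 171, then 273 and 362 in NBRC 0224, and 699 and 1104, then 680 and 991 in NFRI 3145. Its strains did not overlap. RPS27A and RPS27B, for another zinc-binding protein, were higher by 2.14 ± 0.30 and 1.60 ± 0.14 at 0% AcOH. RPS27B read 10355 and 8010 in NBRC 0224 and 27552 and 27629 in NFRI 3145. RPS25B read 1291 and 899, then 871 and 1078 in NBRC 0224, and 2785 and 2918, then 3653 and 3904 in NFRI 3145, again with no overlap of the strains. The gene, whose protein serves initiation at internal entry sites in viral RNAs, was higher by 1.40 ± 0.21 at 0% and 1.96 ± 0.21 at 0.6% AcOH, and RPS7A, for an assembly protein, by 1.23 ± 0.25 and 1.26 ± 0.25. RPS7B had wide error and was not called (0.15, interval −0.93 to 1.23). RPS14A, for a platform protein that in excess blocks splicing of the RPS14B transcript, read 21150 and 20792, then 21955 and 27331 in NBRC 0224, and 25405 and 23695, then 25183 and 22888 in NFRI 3145 and was not called at 0.23 ± 0.12. RPS14B read 12727 and 12016, then 12946 and 15865 in NBRC 0224, and 22487 and 21063, then 21724 and 19852 in NFRI 3145. RPS14B was higher by 0.82 ± 0.12 (adjusted p = 2.3e-04).

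Beside RPS28B, the genes called lower in NFRI 3145 were RPS1A and RPS1B, for a platform protein at the messenger exit. RPS1A (YLR441C) read 1076 and 928, then 545 and 395 in NBRC 0224, and 183 and 228, then 110 and 181 in NFRI 3145. No NFRI 3145 array reached the lowest NBRC 0224 array. The strain difference was −2.29 ± 0.29 (adjusted p = 5.7e-05) at 0% and −1.72 ± 0.29 (adjusted p = 5.4e-04) at 0.6% AcOH. RPS1B (YML063W) read 3560 and 2608, then 1883 and 1217 in NBRC 0224, and 1092 and 1475, then 1022 and 1370 in NFRI 3145. It was lower by limma at 0% AcOH (−1.26 ± 0.27, adjusted p = 0.0022) and not called at 0.6% (−0.36, interval −0.94 to 0.23), where the groups overlapped. RPS0A at 0% and 0.6% AcOH also had both NFRI 3145 arrays below both NBRC 0224 arrays, with differences of −0.06 and −0.21 that were not called.

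**Figure D2:**
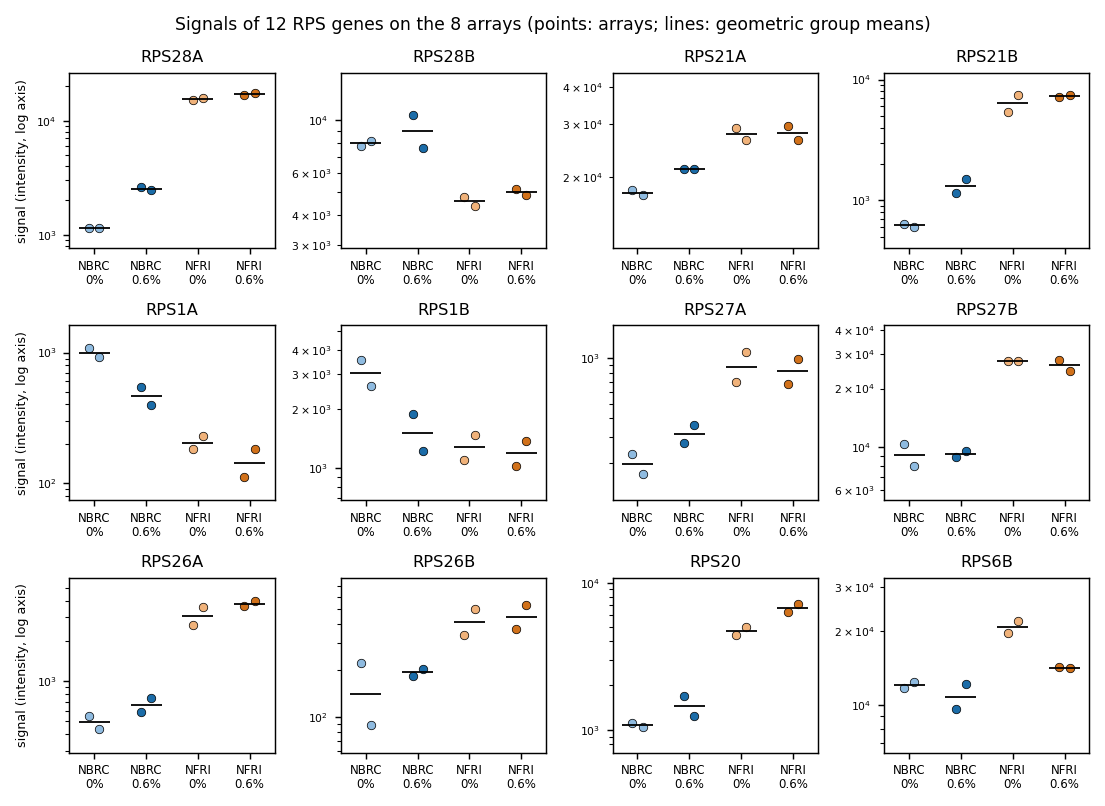
Signal (intensity, log axis) of 12 small subunit genes on the 8 arrays, by group; points are arrays, lines are the geometric mean of the 2 arrays of a group. RPS28A goes from about 1149 and 2540 in NBRC 0224 to 15494 and 17049 in NFRI 3145, RPS28B and RPS1A are lower in NFRI 3145, and RPS6B falls with acid in NFRI 3145 from 20708 to 14191.

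Over the 40 members read by a plain _at probe set, the median strain differences were 0.69 at 0% and 0.54 at 0.6% AcOH. They were 1.23 and 1.26 for the 23 members never above 10000. For the 29 above that mark on an array they were 0.65 and 0.44. Whether compression of high signals has a part in this was not tested.

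Of 13 members with 2 probe sets, both gave the same direction of strain difference in 11 at 0% and 12 at 0.6% AcOH, and they lay within 0.5 on the log2 scale in 9 and 10. Among the exceptions, the sets of RPS8A had opposite directions at both acid levels (0.42 by the _s_at set used and −0.10 by the other at 0% AcOH, 0.33 and −0.08 at 0.6%). RPS19B (1.69 and 0.68) and RPS24A (0.34 and 1.36) differed in size at 0% AcOH. RPS18B, not called at 0% AcOH, was at 0.34 by the _s_at set used and at 0.79 by its _at set. The strain values of these genes are therefore uncertain.

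With acid, RPS28A and RPS21B were higher and RPS1A and RPS1B lower in NBRC 0224, and RPS6B was lower in NFRI 3145. In NBRC 0224, 2 of 52 were higher (3.85%, against 3.61% of all tested genes) and 2 were lower (3.85%, against 4.8%), so the shares of calls were near those of the array. The members' median log2 change was 0.12 and that of all tested genes −0.11. After quantile normalization these were 0.02 and −0.01, with 2 members called higher and 3 lower, and median centring gave 2 higher and 1 lower. The shares of all tested genes called under these scalings are not given here. In the deposited scaling, the median was −0.03 for the 23 members never above 10000. It was 0.16 for the 29 above that mark on an array. Both acid arrays lay above both arrays without acid for 19 members (36.5%, against 21.8% of all tested genes) and below for 6 (11.5%, against 33.8%). In NFRI 3145, no member was called higher (0%, against 3.82%, with 3 members at an unadjusted p under 0.05 in either direction) and 1 was lower (1.92%, against 9.67%). The median was 0.05 beside −0.07 for all tested genes, and both acid arrays were higher for 16 members (30.8%, against 24.7%) and lower for 6 (11.5%, against 34.5%). In this strain the median was 0.19 for the members never above 10000 and 0.002 for those above it on an array. Called members of NBRC 0224 numbered 12 when its 0.6% AcOH replicate 1 was left out and 1 when either of its 0% AcOH arrays was.

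The 4 calls in NBRC 0224 were RPS28A and RPS21B, which rose, and both RPS1 copies, which fell. RPS28A went from a mean of 1149 to 2540 (1.14 ± 0.14, adjusted p = 5.3e-04), the 1 member called in each of the 8 fits with an array left out. RPS21B went from 620 to 1315 (1.08 ± 0.20, adjusted p = 0.0089, called in 6 of the 8). RPS1A fell from 999.5 to 464 (−1.11 ± 0.29, adjusted p = 0.039, called in 5 of 8) and RPS1B from 3047 to 1514 (−1.01 ± 0.27, adjusted p = 0.041, called in 1 of 8). RPS9A, read at 408 and 289 at 0% AcOH and at 208 and 137 at 0.6% without overlap, missed the threshold (−1.02 ± 0.30, adjusted p = 0.064). RPS30A at 0.67 ± 0.37 and RPS27A at 0.66 ± 0.30 had the next highest values and were not called, and RPS10B and RPS8B were at −0.45 ± 0.23 and −0.41 ± 0.16.

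The call in NFRI 3145 was RPS6B, for the protein phosphorylated downstream of TOR. It read 19583 and 21899 without acid and 14212 and 14170 with acid. The acid arrays were both lower, at −0.55 ± 0.13 (adjusted p = 0.021, called in 4 of 8 fits with an array left out). All 4 signals exceed 10000. RPS6B was read by an _s_at set, which may include other transcripts. Of the 40 members read by an _at set, 0 were called in this strain (0%, against 13.5% of all tested genes). Median centring, which moved the median acid change of all tested genes in this strain to 0.16, called 2 members higher and none lower. The share of all tested genes called under it is not given here. In NBRC 0224 RPS6B read 11753 and 12436 without acid and 9629 and 12118 with it, which was not called (−0.16, interval −0.45 to 0.13). The largest other values in NFRI 3145 were −0.71 ± 0.30 for RPS9A, −0.53 ± 0.29 for RPS1A and −0.52 ± 0.49 for RPS7B on one side, and 0.53 ± 0.19 for RPS20, 0.47 ± 0.22 for RPS23B, 0.41 ± 0.21 for RPS25B and 0.37 ± 0.27 for RPS18B on the other, none of them called. RPS28A, called in NBRC 0224, stood at 0.14 in NFRI 3145 with an interval of −0.16 to 0.44. Its signals there were above 10000 already without acid. No member was called in NFRI 3145 when any 1 of its own 4 arrays was left out, and 2 were when either NBRC 0224 0.6% AcOH array was.

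**Figure D3:**
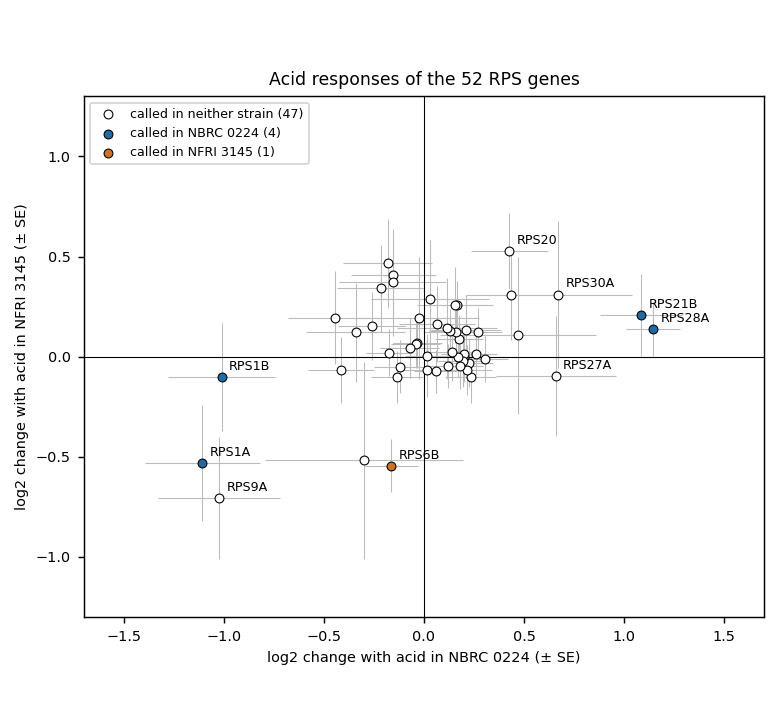
Log2 change with acid in NBRC 0224 (x) against NFRI 3145 (y) for the 52 small subunit genes, with standard errors; filled points were called in 1 strain. RPS28A and RPS21B lie right, RPS1A and RPS1B left, and RPS6B low, while the other 47 genes were called in neither strain.

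Averaged over both strains, the acid response had 3 members higher (5.77%, against 5.7% of all tested genes) and 3 lower (5.77%, against 11.7%). The higher genes were RPS21B (0.65 ± 0.14, adjusted p = 0.010), RPS28A (0.64 ± 0.10, adjusted p = 9.7e-04) and RPS20 (0.48 ± 0.13, adjusted p = 0.031). The lower genes were RPS9A (−0.86 ± 0.22, adjusted p = 0.018), RPS1A (−0.82 ± 0.20, adjusted p = 0.017) and RPS6B (−0.35 ± 0.09, adjusted p = 0.024). RPS28A was called in all 8 fits with an array left out, and RPS21B in 6, RPS9A in 5, RPS1A in 4, RPS6B in 3 and RPS20 in 2. Median centring gave 6 higher and 2 lower, with the share of all tested genes called under it not given here. The count of 6 became 13 without NBRC 0224 0.6% AcOH replicate 1. It became 2 when either 0% AcOH array of NBRC 0224 was left out, and likewise for NFRI 3145 0% AcOH replicate 2 or 0.6% AcOH replicate 1.

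The responses of the strains were compared directly as the difference of the log2 changes (NFRI 3145 minus NBRC 0224). No member was higher (0%, against 0.206% of all tested genes, with 3 members at an unadjusted p under 0.05 in either direction) and 1, RPS28A, was lower (1.92%, against 0.644%). RPS28A had a difference of −1.01 ± 0.19 (adjusted p = 0.039), from 1.14 in NBRC 0224 and 0.14 in NFRI 3145. It was called in 2 of 8 fits with an array left out, and the fitted value stayed between −1.04 and −0.97. The count of 1 became 3 without NBRC 0224 0.6% AcOH replicate 1, stayed at 1 without NBRC 0224 0.6% AcOH replicate 2 and was 0 without any other array. The call was also lost after median centring (adjusted p = 0.082) and without the variance trend (adjusted p = 0.15). RPS21B at −0.88 ± 0.29 (adjusted p = 0.17), RPS27A at −0.76 ± 0.42 and RPS1B at 0.91 ± 0.38 (adjusted p = 0.26) did not pass the test. For most members the interval of this difference was wide. For RPS1A it ran from −0.32 to 1.47.

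The A and B copies were then compared through the ratio of their signals within each array. The change of this ratio between groups was tested for all 54 A/B pairs of tested genes, 21 of them small subunit pairs. RPS4B, RPS6B and RPS30A had no partner among the genes named on the array, and each was read by an _s_at set. A change of the ratio between strains says that the signals of the A and B probe sets changed unequally. It says nothing of the relative amounts of the copies. A set named _s_at or _x_at may also read the partner, and strain sequence differences under the probes were not tested. With _at probe sets only, an alternative chosen after seeing the data, 13 small subunit pairs were called at 0% AcOH and 11 at 0.6%. The share of all pairs called in that setting is not given here, so nothing is drawn from these counts. At 0% AcOH the ratio of 10 of 21 pairs was called (47.6%, against 50% of all pairs), 5 toward the A copy in NFRI 3145 and 5 toward the B copy. At 0.6% AcOH 11 of 21 were called (52.4%, against 53.7% of all pairs), 5 toward A and 6 toward B. The shares are near those of all pairs. The pairs called at 0.6% AcOH were those called at 0% with the addition of RPS22.

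The RPS28 pair changed most. Its log2 A/B ratio was −2.77 and −2.83 in NBRC 0224 at 0% AcOH, −2.004 and −1.626 at 0.6%, and 1.67, 1.86, 1.71 and 1.84 on the NFRI 3145 arrays, all of one sign within a strain. The change was 4.56 ± 0.16 (adjusted p = 1.2e-05 over the pairs) at 0% and 3.59 ± 0.16 (adjusted p = 4.8e-05) at 0.6% AcOH. RPS21 shifted toward the B copy, from 4.83 and 4.85 in NBRC 0224 to 2.43 and 1.83 in NFRI 3145 at 0% AcOH (−2.71 ± 0.24, adjusted p = 7.9e-04). At 0.6% AcOH the RPS21 shift was −2.08 ± 0.24 (adjusted p = 0.0016). RPS1 shifted toward B by −1.03 ± 0.15 and −1.36 ± 0.15, both copies being lower in NFRI 3145 at 0% AcOH. RPS14 shifted toward B by −0.59 ± 0.09 and −0.56 ± 0.09. These 4 pairs were called at both acid levels whichever array was left out, and RPS25 at 0.6% AcOH as well (−1.53 ± 0.17, after −0.75 ± 0.17 at 0%).

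RPS26 (1.09 ± 0.34), RPS29 (0.68 ± 0.18) and RPS0 (−0.43 ± 0.11) were called at 0% AcOH but lost the call when some arrays were left out. The 10 pairs called at 0% AcOH became 6 without NBRC 0224 0% AcOH replicate 1 and 5 without either NFRI 3145 0% AcOH array. The 11 at 0.6% AcOH became 7 when replicate 1 of either strain at that level was left out and 6 when replicate 2 was. RPS16 was at −0.03 (interval −0.35 to 0.28), RPS18 at 0.10 (−0.31 to 0.51) and RPS22 at 0.10 (−0.12 to 0.32). RPS7, at 1.08 ± 0.64, had too wide an error to pass. Of the 10 pairs called at 0% AcOH, 7 had both copies called in the same direction by the fit of single genes. In RPS0 and RPS14 only the B copy was called, and RPS28 was the pair with both copies called in opposite directions.

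**Figure D4:**
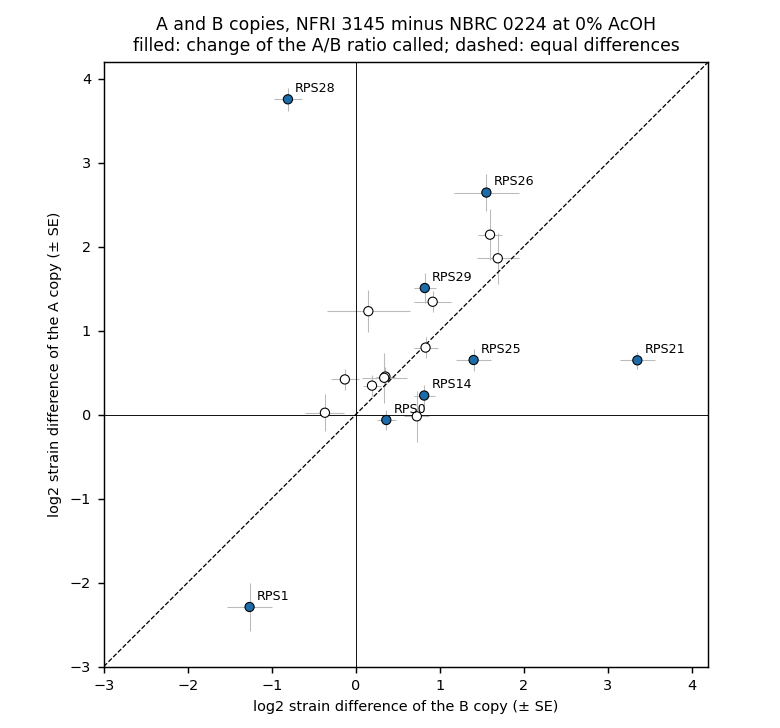
Log2 strain difference at 0% AcOH of the B copy (x) against the A copy (y) for 19 small subunit pairs, with standard errors; filled points had a called change of the A/B ratio, and the dashed line marks equal differences. RPS28 lies far above the line with a negative B value, RPS21 far below it, and RPS1 in the lower left, where both copies are lower in NFRI 3145.

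Acid moved the ratios less. In NBRC 0224, 1 of 21 pairs was called (4.76%, against 5.56% of all pairs). This was RPS28, with a change of 0.98 ± 0.16 toward A (adjusted p = 0.046, called in 1 of 8 fits with an array left out, that without NBRC 0224 0.6% AcOH replicate 1). RPS9 (−0.95 ± 0.27, adjusted p = 0.11) and RPS21 (−0.82 ± 0.24, adjusted p = 0.11) did not pass. In NFRI 3145 no small subunit pair was called by limma (0%, against 3.7% of all pairs, with 3 at an unadjusted p under 0.05), and the largest values were −0.75 ± 0.27 for RPS9, 0.66 ± 0.64 for RPS7 and −0.43 ± 0.15 for RPS1. No pair of the 54 was called by limma for the difference of the responses (0%, with 4 small subunit pairs at an unadjusted p under 0.05) or for the mean response (0%, with 4). RPS28 stood at −0.97 ± 0.22 in the former (adjusted p = 0.072), and RPS9 at −0.85 ± 0.19 and RPS28 at 0.50 ± 0.11 in the latter (both adjusted p = 0.092).

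Across the 8 arrays, 30 of 52 members correlated at r above 0.9 with the mean of the other members, and the median r was 0.92. This is a description over 8 arrays that share their scaling and come from 2 strains. RPS29A (0.99) and RPS26A (0.99) were closest to the rest. RPS28B (−0.94), RPS1A (−0.89), RPS1B (−0.66), RPS0A (−0.43) and RPS10B (−0.09) ran the other way.

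Of the 76 tested large subunit genes, 48 were higher (63.2%, against 21.1% of all tested genes) and 3 lower (3.95%, against 29.1%) in NFRI 3145 at 0% AcOH, with a median of 0.79. At 0.6% AcOH 45 were higher and 1 lower (59.2% and 1.32%, against 17.4% and 28.7%), with a median of 0.70. With acid, 3 were higher and 1 lower in NBRC 0224 (3.95% and 1.32%, against 3.61% and 4.8%, median 0.16), and 0 higher and 1 lower in NFRI 3145 (0% and 1.32%, against 3.82% and 9.67%, median 0.01). Of 10 tested genes for small subunit proteins of the mitochondrial ribosome, 4 were higher and 3 lower in NFRI 3145 at 0% AcOH (40% and 30%, against 21.1% and 29.1%, median 0.08). Among proteins bound to the small subunit, ASC1, the scaffold on its head, was not called between strains (0.26 ± 0.11 at 0% AcOH, adjusted p = 0.076), with signals of 19060 to 23949. STM1, which holds idle ribosomes together, read 1559 and 1773 in NBRC 0224 and 323 and 365 in NFRI 3145 at 0% AcOH and was lower by limma, at −2.28 ± 0.36 (adjusted p = 3.0e-04).

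Of 20 listed regulators of ribosomal protein genes, 13 could be tested. FHL1 and IFH1 were among those left out as too near background. At 0% AcOH 7 were lower in NFRI 3145 (RAP1, SFP1, HMO1, TBF1, TOR2, DOT6 and UTP22) and 2 higher (SCH9 and TCO89), which is 53.8% and 15.4% against 29.1% and 21.1% of all tested genes. RAP1, which encodes the main binding protein of these promoters, read 310 and 284 in NBRC 0224 and 69.0 and 66.4 in NFRI 3145 (−2.13 ± 0.27, adjusted p = 6.7e-05). SFP1, the activator under TOR, read 1072 and 1261 against 297 and 160 (−2.41 ± 0.28, adjusted p = 3.3e-05). Both gave lower signals in NFRI 3145, while SCH9 gave a higher one (0.44 ± 0.16, limma adjusted p = 0.037). Any link of these regulators to the small subunit genes was not tested. At 0.6% AcOH 8 regulators were lower (61.5%, against 28.7%), among them LST8, and KOG1 was higher (7.69%, against 17.4%). Acid called no regulator in NBRC 0224 by limma (0%, against 8.4% of all tested genes). In NFRI 3145 it called DOT6 and TCO89 lower (15.4%, against 9.67%). TCO89, UTP22 and PRP43, a maturation gene, had groups with both arrays below background, so no fold is given. DOT6 and HRR25, another maturation gene, each read below background on 1 array. This was NFRI 3145 0.6% AcOH replicate 1, with signals of 31.7 and 14.7 and a background of 43.6. Of 11 tested small subunit maturation genes, BUD23 was higher (9.09%, against 21.1%) and ENP1 and PRP43 were lower (18.2%, against 29.1%) in NFRI 3145 at 0% AcOH. At 0.6% AcOH TSR1 was higher (9.09%, against 17.4%), and PRP43 and HRR25 were lower (18.2%, against 28.7%). With acid, ENP1 fell in NBRC 0224 (−0.98 ± 0.25, limma adjusted p = 0.033), which is 9.09% against 4.8% of all tested genes. BUD23 fell in NFRI 3145 (−1.06 ± 0.31, limma adjusted p = 0.044), which is 9.09% against 9.67%.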

How the data were processed

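RNA of 8 yeast samples was hybridised to Affymetrix arrays with 1 label. The deposited values are linear intensity signals made by the authors with GCOS, per the submitters' processing notes; its settings are not given in the sources used here. The trimmed mean (2% off each end) was 500.7 to 500.8 on every array. Of 10928 probe sets, 7244 carried 1 gene symbol, 1 several and 3683 none in the platform annotation, and 12 symbols were updated. No count test fits intensities. The share of tested genes above background differed between arrays. It ran from 70.4% (NFRI 3145 0.6% AcOH replicate 1) to 91.3% (NBRC 0224 0% AcOH replicate 2).

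Genes were tested where the signal exceeded the 95th percentile of 1746 Schizosaccharomyces pombe probe sets on at least 2 arrays, which left out 1570. Log2 signals were fitted with limma 3.58.1 (R 4.3.3) as 4 group means with a trended variance (residual degrees of freedom 4), and p-values were adjusted by Benjamini-Hochberg over 3879 genes in each of 6 comparisons, calling those under 0.05. Intervals are 95% intervals of this fit. Log2 A/B ratios were fitted likewise without trend, adjusted over 54 pairs. The script was tested on simulated data. Alternatives were other scalings, filters, offsets and variance models, arrays of 1 strain, a replicate block and leaving out each array.

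The members and lists were chosen with earlier results of these data known. The rule for named genes took members called in any comparison, the 4 highest and 4 lowest of each comparison, called pairs and the 3 largest pair changes, members above 10000, RPS28A and RPS28B, ASC1, STM1 and called genes of the regulator and maturation lists. Values on every array are given for the leading ones and differences or counts for the rest. The single values of 4 members are not reported here, though counts and medians include them.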

Additional observations from a re-analysis of the deposited data

Results flagged for a closer look

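The acid response of RPS28A differed between the strains by a test of the difference itself: −1.01 ± 0.19 on the log2 scale (limma, adjusted p = 0.039), from 1.14 in NBRC 0224 to 0.14 in NFRI 3145. The call held in 2 of 8 fits with an array left out, and it was lost after median centring (−0.93, adjusted p = 0.082) and without the variance trend (adjusted p = 0.15). Its signals lay above 10000 in NFRI 3145 at both acid levels and at or below 2600 in NBRC 0224. The part of the signal range in this difference was not tested.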

How the results depend on the processing

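Each group has 2 arrays. Members called with acid in NBRC 0224 fell from 4 to 2 without the filter on low signals, to 1 without the variance trend and to 1 with the arrays of 1 strain only. In NFRI 3145 the count of 1 became 2 after median centring, 0 without the trend and 3 with the arrays of 1 strain only. For the difference of the responses it became 0 after median centring and 0 without the trend. Without the trend it was 25 for the strain difference at 0.6% AcOH, in place of 38, and 1 for the mean acid response, in place of 6. Pairs called with acid in NBRC 0224 numbered 0 without the filter and 4 with a trended variance, which gave 1 for the difference of the responses. Leaving out 1 array gave 1 to 12 members for acid in NBRC 0224, 0 to 2 in NFRI 3145, 0 to 3 for the difference, 2 to 13 for the mean response, 34 to 44 for the strains at 0% AcOH and 32 to 39 at 0.6%. For pairs it gave 0 to 1, 0 to 0, 0 to 0, 0 to 0, 5 to 11 and 6 to 8 in the same order. With _at probe sets, an alternative chosen after seeing the data, RPS8A reversed to −0.10 at 0% AcOH and −0.079 at 0.6%. Same-numbered arrays deviated together at r of −0.05 to 0.05. The labels do not say what they share beyond a number, and this check cannot settle it. With the replicate number as a block, members called were 4, 1, 1, 6, 41 and 36, and pairs for acid in NBRC 0224 were 3 in place of 1. The cause of these changes was not tested. All these counts stand without the share of all genes or pairs called under the same alternative. Of the called results of named genes and pairs under the alternatives, 1468 kept direction and call, 216 lost the call and 2 reversed.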
